A study of Mus musculus with 8 samples.

Results

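The 7 genes described here encode the kainate receptor family, the subunits Grik1, Grik2, Grik3, Grik4 and Grik5 and the auxiliary proteins Neto1 and Neto2. They were taken by symbol out of the 55450 genes in the count tables, and all 7 were found and tested. RNA came from nuclei of GABAergic (inhibitory) neurons, sorted from individual juvenile mouse cortices by a nuclear fluorescent reporter that depends on a Cre driver; the labels do not name the gene that drives Cre. Every mouse carried the reporter and the Cre driver. The controls were Thra+/+ (4 libraries, numbered 1 to 4), and the mutants were Thra+/AMI, in which Cre also switches on, in the same neurons, a mutated Thra that encodes a dominant-negative thyroid hormone receptor (4 labelled samples, numbered 6, 7, 8 and 10). The tables of mutants 7 and 10 held the same count in each of the 21975 genes with a count and a symbol of its own, less than sampling noise, so they were counted as 1 sample and the comparison is between 4 controls and 3 mutants. The mutants are heterozygous, so 1 normal allele remains, and the mutation is limited to cells in which the driver is active.

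Kainate receptors are glutamate-gated cation channels built from several subunits. Grik1, Grik2 and Grik3 encode subunits that can form channels by themselves, whereas the products of Grik4 and Grik5 bind glutamate with high affinity and need one of the former as a partner. Neto1 and Neto2 encode transmembrane CUB-domain proteins that bind the receptors and change their gating and placement. In the cortex and hippocampus these receptors are known to act on interneurons, where they alter excitability and the release of GABA.

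The libraries held 10747169 to 13804734 counts, and the 7 genes had 513 to 20865 reads each per library. The mutated gene, Thra, was at 105.5 to 125.5 CPM (counts scaled to library size, with TMM factors for library composition) in controls and at 77.6 to 96.3 CPM in mutants, with an adjusted p of 0.0543. These counts add both alleles and do not show the mutation itself. The labelled cell type was checked with Gad1 (520.1 to 660.2 CPM in controls, 586 to 664 in mutants) and Gad2 (388 to 423 and 367 to 497 CPM), the enzymes of GABA synthesis. Dlx1 and Dlx6, also GABAergic markers, were listed at 0 in all 7 libraries. Dlx2, at 19.9 to 31.6 and 25.2 to 32.9 CPM, and Dlx5, at 14.7 to 21.1 and 15.2 to 23.8 CPM, were counted. The cause of the counts of 0, here and below, was not tested. They are not shown to mean absent expression. Markers of glutamatergic neurons summed to 334 to 471 CPM over 8 genes in controls and to 276 to 354 CPM in mutants, with 0 called. The 8 astrocyte markers summed to 358 to 517 and 300.4 to 343 CPM, with Slc4a4 called lower and Gfap at 0 throughout. The 8 oligodendrocyte markers summed to 165 to 203 and 183 to 219 CPM, with Mog called higher. The 6 markers of their precursors summed to 16.7 to 23.6 and 16.9 to 22.3 CPM (0 called, Gpr17 at 0), the 8 microglial markers to 68.6 to 85.9 and 84.2 to 90.2 CPM (0 called, P2ry12 at 0), and the 8 endothelial markers to 57.3 to 132 and 56.4 to 87.7 CPM (0 called). The part of these cells in the values below was not tested.

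None of the 7 genes passed the test, edgeR's quasi-likelihood test with an adjusted p under 0.05, by which 1549 of 16448 tested genes (9.42%) were called. Of all tested genes 4.63% were called higher and 4.78% lower. In mutants 6 of the 7 genes had a higher mean, as had 7888 of the 16448 tested genes, and 1, Neto2, a lower one. Grik4, among the 6, was nearly level (log2 fold change 0.01), and its sign changed in some fits given below. Grik1 and Neto1 lay just outside the threshold, with adjusted p-values of 0.0552 and 0.0504. At an unadjusted p under 0.05 there were 4 of 7, Grik1, Grik3 and Neto1 higher and Neto2 lower, where 22.5% of all tested genes had such a p (10.9% higher, 11.7% lower). For 3 of the 7, Grik1, Neto1 and Neto2, the CPM ranges of the groups lay apart, as for 22.0% of all tested genes (11.2% higher, 10.7% lower). The median log2 fold change over the 7 genes was 0.32, and over all tested genes it was -0.01. Other methods called up to 5 of the 7, as given below.

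Grik1 (ENSMUSG00000022935.16, GRCm38 chromosome 16, 87895900 to 88290265, minus strand) was the most abundant of the 7 per kb of merged exon, a basis whose limit is given below. It also had the largest difference. Controls 1 to 4 were at 609, 1076, 960.2 and 1202 CPM, and mutants 6, 7 and 8, in that order, at 1632, 1735 and 1472 CPM. Every mutant was above every control, and control 1 was well below the other controls. The means were 962 ± 255 CPM (SD, n = 4) and 1613 ± 133 CPM (SD, n = 3). On the log2 scale the mutants were higher by 0.75 (SE 0.22), a fold of 1.68 with a 95% confidence interval from 1.20 to 2.34.

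Grik2 (ENSMUSG00000056073.16, chromosome 10, 49094833 to 49788766, minus strand), the other abundant channel-forming subunit, differed less. It was at 731, 1098, 949 and 1285 CPM in the controls and at 1331, 1305 and 1172 CPM in the mutants. Control 4 lay among the mutants, so the groups overlapped. The log2 fold change was 0.32 (SE 0.20, adjusted p 0.39), and the 95% interval of the fold, 0.925 to 1.69, includes both no difference and one as large as that of Grik1.

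Grik3 (ENSMUSG00000001985.9, chromosome 4, 125490700 to 125714173, plus strand) was the least abundant of the channel-forming subunits. Its level was 91.4, 140.0, 146 and 202 CPM in the controls and 260.4, 193 and 206 CPM in the mutants. Control 4 was above mutant 7 and below the other two mutants. The log2 fold change was 0.60 (SE 0.21, adjusted p 0.106), a fold of 1.52 with an interval from 1.10 to 2.09.

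The high-affinity subunits differed least. Grik4 (ENSMUSG00000032017.14, chromosome 9, 42518135 to 42944493, minus strand) was at 40.7, 56.8, 55.0 and 80.8 CPM in the controls and at 67.1, 55.0 and 54.0 CPM in the mutants, which lie inside the range of the controls. Its log2 fold change was 0.01 (SE 0.19, adjusted p 0.985), and the interval of the fold, 0.757 to 1.34, extends to both sides of no difference. Grik5 (ENSMUSG00000003378.9, chromosome 7, 25009849 to 25072346, minus strand) was at 178, 209, 222 and 191 CPM in the controls and at 243, 215 and 227 CPM in the mutants. Control 3 was above mutant 7, and the log2 fold change was 0.19 (SE 0.12, adjusted p 0.383).

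The auxiliary proteins went opposite ways. Neto1 (ENSMUSG00000050321.3, chromosome 18, 86394952 to 86506718, plus strand) was at 277, 376, 371 and 410.1 CPM in the controls and at 506, 544 and 495 CPM in the mutants. Neto2 (ENSMUSG00000036902.11, chromosome 8, 85636588 to 85700924, minus strand) was at 272, 306, 259.8 and 294 CPM in the controls and at 207, 231 and 238 CPM in the mutants. The groups did not overlap for either gene. The log2 fold change was 0.52 (SE 0.15) for Neto1, a fold of 1.44 with an interval from 1.14 to 1.81, and -0.33 (SE 0.12, adjusted p 0.116) for Neto2, a fold of 0.795 with an interval from 0.664 to 0.953. The exons of Neto1 share 2.62% of their length with the gene AC113599.1 on the opposite strand, and those of Neto2 share 0.33% with Mir8109, also on the opposite strand. Of the Grik genes only Grik4 shares exon sequence with another gene, 0.99% with Gm24420 on the same strand. Whether counting used strand is not given in the sources used here.

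**Figure D1:**
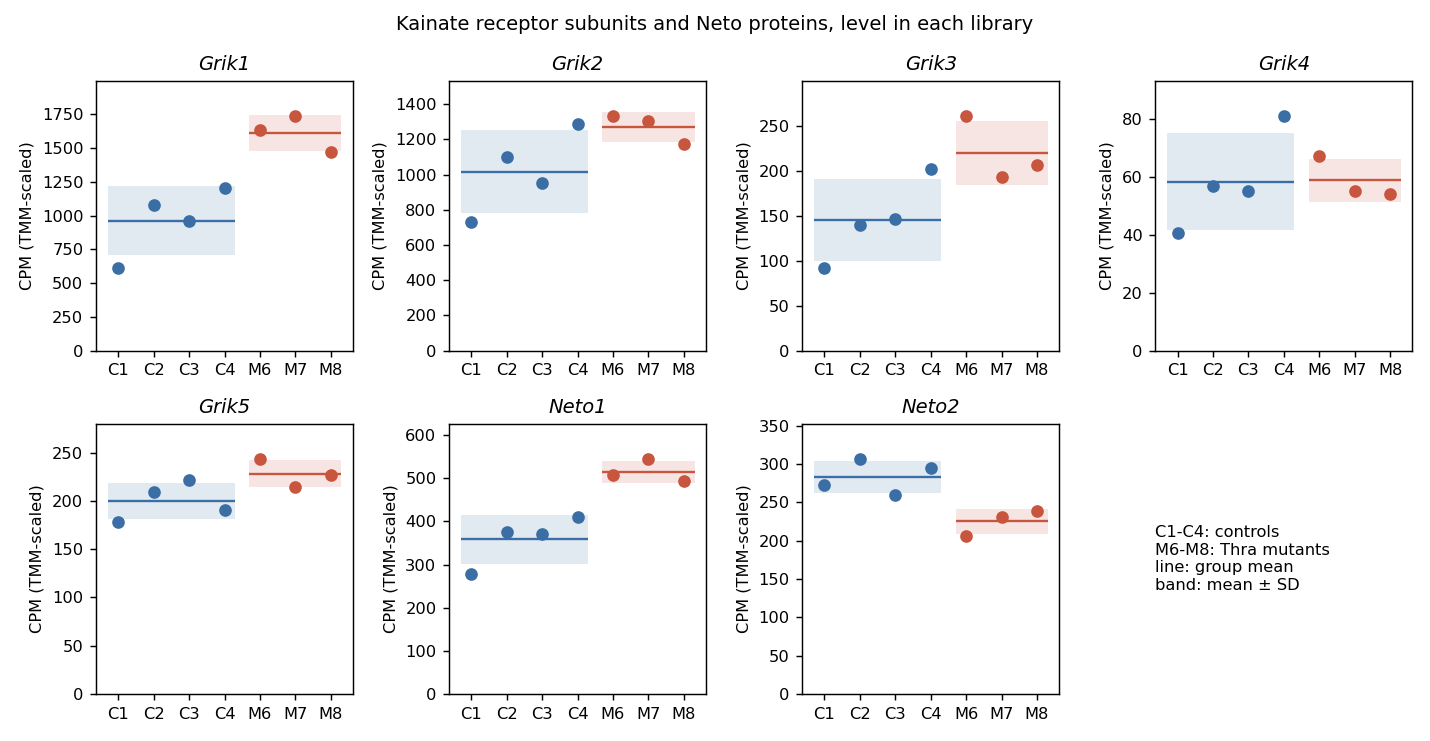
Level of each gene in every library, in TMM-scaled CPM on a linear axis from 0 (C1 to C4 controls, M6 to M8 Thra mutants); lines are group means and bands are the mean ± SD. The mutants of Grik1 (1472 to 1735 CPM) and Neto1 (495 to 544 CPM) sit above all controls, those of Neto2 (207 to 238 CPM) below them, and control 1 is the lowest control in 6 of the 7 panels.

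The mutated gene encodes a receptor that binds DNA, so the windows around the start sites were searched for its textbook half-site, AGGTCA, on both strands. RefSeq windows (GRCm38.p6, 250 bases before to 50 after a start) were at hand for 5 of the 7 genes, Grik2, Grik3, Grik4, Grik5 and Neto2, in 6 windows. None of the 6 held AGGTCA, which 16.3% of all 32851 windows hold, and none held it as a direct repeat with 4 bases between. This says only that these letters are not in these windows. The 250 bases before the start are shown for Grik3 and for the upstream one of 2 starts of Neto2, the 2 of the 5 genes with an unadjusted p under 0.05, with CpG pairs in capitals. The Grik3 window is chr4:125490446-125490695 on the plus strand and that of Neto2 chr8:85700925-85701174 on the minus strand.
Grik3: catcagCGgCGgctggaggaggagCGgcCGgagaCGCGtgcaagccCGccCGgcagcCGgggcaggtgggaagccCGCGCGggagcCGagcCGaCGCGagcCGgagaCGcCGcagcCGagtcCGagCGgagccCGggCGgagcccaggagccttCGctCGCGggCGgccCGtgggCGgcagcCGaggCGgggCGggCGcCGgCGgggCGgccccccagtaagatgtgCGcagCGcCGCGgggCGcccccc
Neto2: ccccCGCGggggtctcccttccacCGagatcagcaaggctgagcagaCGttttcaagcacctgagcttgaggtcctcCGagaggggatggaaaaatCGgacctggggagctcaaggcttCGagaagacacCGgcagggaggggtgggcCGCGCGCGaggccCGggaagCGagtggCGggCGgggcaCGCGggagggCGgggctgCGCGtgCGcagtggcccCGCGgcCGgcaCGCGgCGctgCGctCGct
They hold 42 and 30 CpG pairs, where the median of all windows is 6, and both are rich in G and C (82.0% of the Grik3 window). The window at the other Neto2 start holds 0 CpG pairs. Those of Grik4, Grik2 and Grik5 hold 36, 20 and 8, so a high count is not particular to the 2 windows shown.

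Levels of different genes were set side by side as CPM per kb of merged exon. Whether reads in introns were counted is not given in the sources used here, and the spans run from 62.5 kb (Grik5) to 693.9 kb (Grik2). If introns were counted, exon length is not the right divisor. The order of the genes, the shares and the ratios below hold only on this basis. In controls Grik1 stood at 143 ± 38.0 CPM per kb (SD, n = 4) and Grik2 at 76.7 ± 17.7. A group of 3 followed, Neto2 at 46.2 ± 3.41, Neto1 at 42.9 ± 6.81 and Grik5 at 38.7 ± 3.68, whose ranges overlapped. Grik3, at 16.1 ± 5.05, and Grik4, at 9.78 ± 2.79, were lowest, and they overlapped as well. The ranges of Grik1 and Grik2 also overlapped between libraries, although Grik1 was above Grik2 within each control. In mutants the order was Grik1 (240.0 ± 19.7 CPM per kb; SD, n = 3), Grik2 (95.8 ± 6.44), Neto1 (61.6 ± 3.07), Grik5 (44.2 ± 2.76), Neto2 (36.7 ± 2.69), Grik3 (24.5 ± 3.98) and Grik4 (9.85 ± 1.22), with no overlap between neighbours. Neto2 ranked above Neto1 and Grik5 in controls and below both in mutants.

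Within a library the subunits can be set against each other, which leaves out the scaling factor of the library. It does not take out the trend with genomic span that is given below. Grik5, the shortest in span, held 17.5% of the summed Grik level in control 1 and 10.6% in control 4. Of the summed Grik level per kb, Grik1 made up 45.9%, 51.9%, 50.5% and 51.3% in the controls, in order, against 56.4%, 60.2% and 57.1% in the mutants. The share was higher in each mutant than in each control. Grik2 held 27.0% ± 1.21 (SD, n = 4) in controls and 23.1% ± 0.192 (SD, n = 3) in mutants, and Grik4 held 3.42% ± 0.345 and 2.38% ± 0.232, both without overlap. The shares of Grik3 (5.06% to 6.46% in controls, 5.02% to 6.74% in mutants) and Grik5 (14.1% ± 2.94 and 10.7% ± 0.917) overlapped. The shares of Grik2 and Grik4 were lower in mutants while their mean CPM was not. The shares in a library add up to the whole, so a larger share of Grik1 must leave less for the other subunits together. The lower shares of Grik2 and Grik4 are therefore no separate evidence.

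The ratio of Neto1 to Neto2 per kb was 0.747, 0.901, 1.05 and 1.02 in the controls, in order, against 1.80, 1.73 and 1.52 in the mutants. Neto1 was below or about level with Neto2 in the controls and above it in every mutant. The ratio of Grik1 to Grik2 per kb was 1.85 ± 0.154 (SD, n = 4) in controls and 2.42, 2.62 and 2.48 in the mutants, also without overlap. The ratio of Grik5 to Grik4 was 4.17 ± 1.02 in controls and 4.51 ± 0.339 in mutants and overlapped. It was 5.06 in control 1 and 2.73 in control 4, and the span trend was not taken out of it. These ratios were chosen with the single genes' values known and carry no test. Neto1 was higher and Neto2 lower in every mutant than in every control, so their ratio had to lie apart. How often shares or ratios of other genes lie apart was not counted.

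**Figure D2:**
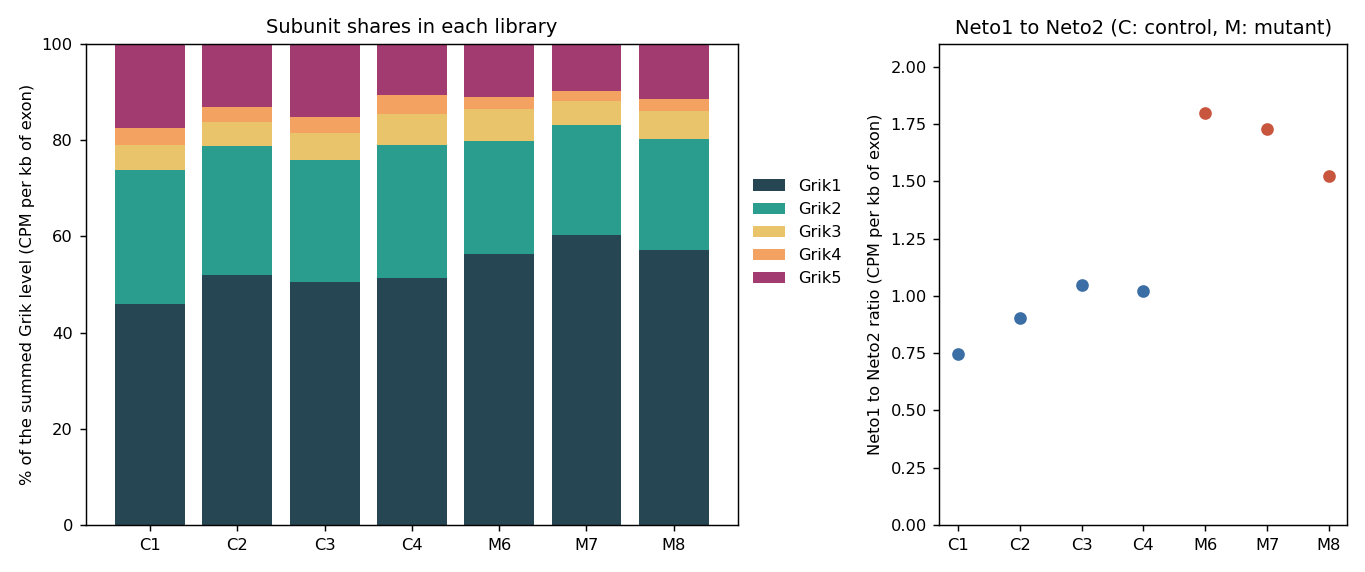
Left, share of each Grik subunit in the summed Grik level (CPM per kb of merged exon, in percent) in each library; right, the ratio of Neto1 to Neto2 on the same per-kb scale (C controls, M mutants). Grik1 takes 45.9% to 51.9% in controls and 56.4% to 60.2% in mutants, and the Neto1 to Neto2 ratio runs from 0.747 to 1.05 in controls and from 1.52 to 1.80 in mutants.

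The spread of the controls followed the genomic span of genes. Relative to controls 2 and 3, the median log2 CPM of the 595 tested genes over 300 kb was -0.49 in control 1 and 0.57 in control 4, while that of the 4563 genes up to 10 kb was 0.26 and -0.20. The mutants' mean lay at 0.06 and -0.04 in the same sets of genes. The 7 genes span from 62.5 kb (Grik5) and 64.3 kb (Neto2) through 111.8 kb (Neto1), 223.5 kb (Grik3), 394.4 kb (Grik1) and 426.4 kb (Grik4) to 693.9 kb (Grik2). Control 1 was the lowest control for 6 of the 7 and control 4 the highest for 5 of the 7. Grik1 stood at -0.74 in control 1, below the median of genes of its span, and at 0.24 in control 4. The shortest of the 7 did not both follow the trend. Neto2 stood at -0.05 and 0.06, and Grik5 at -0.27 in control 1 and -0.17 in control 4, where the medians of genes from 30 to 100 kb were -0.11 and 0.07.

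**Figure D3:**
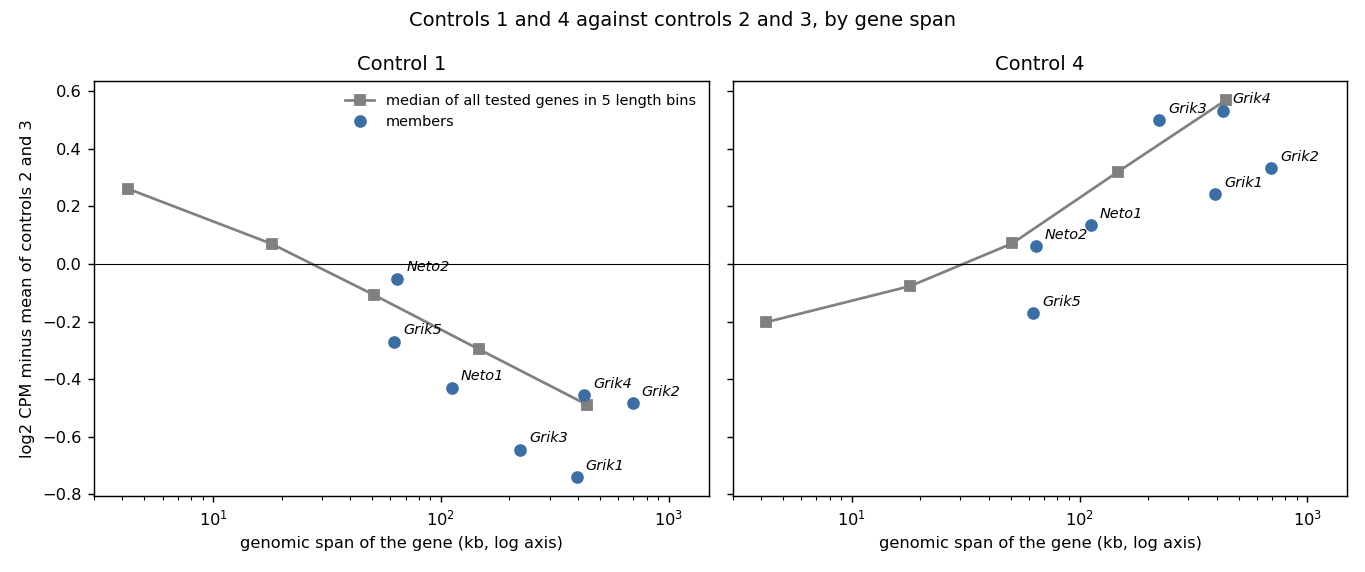
Log2 CPM of control 1 (left) and control 4 (right) minus the mean of controls 2 and 3, against the genomic span of the gene in kb (log axis); grey squares are medians of all tested genes in 5 bins of span and blue points are the 7 genes. Long genes are low in control 1 (Grik1 at -0.74) and high in control 4 (Grik4 at 0.53).

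With this trend taken out of each library, the controls lay closer together for 6 of the 7 genes, all but Grik5 (range 0.31 before, 0.35 after, in log2). The trend was estimated from these same libraries, so for long genes such a closing up of the controls is largely built in. The range of Grik1 over the controls went from 0.98 to 0.31 on the log2 scale, with a difference of 0.75 between the group means, and that of Grik4 from 0.99 to 0.09, with a difference of 0.01. Groups were then apart for 5 of the 7 genes, the former 3 with Grik2 and Grik3, and for 26.5% of all tested genes on this scale. In an edgeR fit with the trend as an offset, 5 of the 7 were called, in a fit that called 16.7% of all tested genes. They were Grik1 (log2 fold change 0.75, SE 0.10, adjusted p 5.1e-05), Neto1 (0.52, SE 0.09, adjusted p 0.000496), Grik3 (0.61, SE 0.11, adjusted p 0.000859), Grik2 (0.30, SE 0.09, adjusted p 0.0372) and, lower, Neto2 (-0.34, SE 0.09, adjusted p 0.0165). Grik4 and Grik5 had adjusted p-values of 0.952 and 0.244. The fit with the offset takes the trend as known, so its SE and adjusted p-values leave out the uncertainty of the trend.

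Without controls 1 and 4, a fit that called 16.7% of genes, Grik1 (0.66), Grik3 (0.62), Neto1 (0.46) and Neto2 (-0.33) were called. Without control 4 alone, where 14.5% were called, Grik1 (0.87, adjusted p 0.00514), Grik3 (0.81, adjusted p 0.00257) and Neto1 (0.59, adjusted p 0.00758) passed, and without control 1 alone, where 12.5% were called, Grik1 (0.58, adjusted p 0.0251) and Neto1 (0.42, adjusted p 0.034) did. None of the 7 passed without control 2 (6.44% of all genes called), control 3 (6.25%), mutant 6 (4.55%), mutant 7 (4.35%) or mutant 8 (4.86%). Without control 4 and mutant 8 together (8.53%) Grik1, Grik3 and Neto1 were called. Among other filters and scalings, 2 of the 7 (Grik1 and Neto1) passed with no filter (6.28%) and with upper quartile factors (9.41%), 1 (Neto1) passed with a least level of 1 CPM in 3 libraries (9.73%), and 0 with RLE size factors (9.43%). DESeq2 called 3 of the 7 (12.1% of all genes), Grik1, Neto1 and Neto2, and limma-voom with sample weights called 4 (19.1%), these with Grik3. The sign of the difference was the same in all 16 alternative fits for every gene except Grik4, which ran from -0.12 to 0.27.

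**Figure D4:**
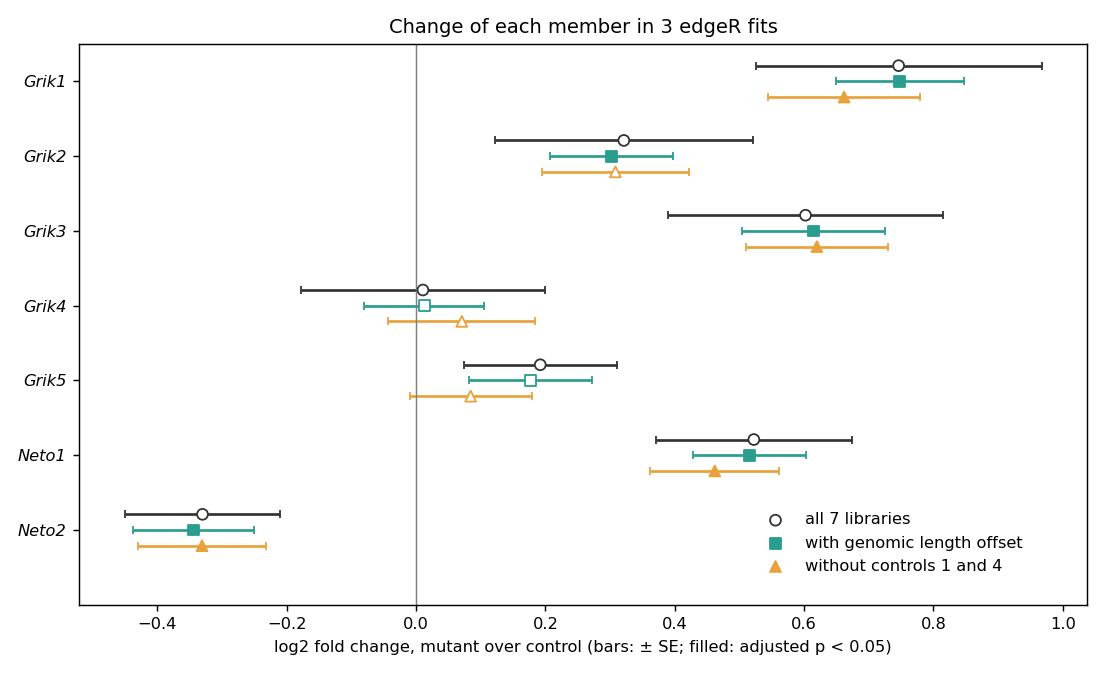
Log2 fold change of mutant over control for each gene (x axis; bars are ± SE) in edgeR fits of all 7 libraries, with an offset for genomic length, and without controls 1 and 4; filled symbols passed an adjusted p under 0.05. With all libraries none is filled, and with the offset the SE of Grik1 goes from 0.22 to 0.10 at an unchanged log2 fold change of 0.75. The SE with the offset leaves out the uncertainty of the trend.

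In bulk nuclei, fewer cells of a class and less RNA per cell cannot be told apart, and markers of the interneuron classes moved between the same groups. In the parvalbumin list 4 of 9 tested genes were called, all lower, led by Pvalb (41.0 ± 5.91 to 1.81 ± 0.682 CPM). The list's summed level was 4337 to 7056 CPM in controls and 5544 to 6738 in mutants, and most of it came from Erbb4 (means of 3309 and 3964 CPM) and Kcnc2 (1465 and 1824 CPM), neither of them called. In the somatostatin list 3 of 9 were called higher, among them Sst (281 ± 49.4 to 502 ± 68.5 CPM), and 2 lower, and the sum was 1730.1 to 2015 and 2498 to 2921 CPM. In the VIP list 3 of 8 were called higher and 2 lower (378 to 575 and 552 to 577 CPM), and in the LAMP5 list 1 of 6 higher and 1 lower (257 to 308 and 245 to 289 CPM). Vip (log2 fold change -0.27) and Lamp5 (-0.53) were not called. None of the 6 tested general GABAergic markers was called, and their median log2 fold change was 0.13. The part of the class makeup in the values of the 7 genes was not tested.

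Proteins that anchor, move or modify kainate receptors were read from the same fit. Of 26 genes matched by symbol 24 were tested, and 2 passed, both lower, a share near the 9.42% called among all tested genes. The median log2 fold change over the 24 was -0.02. Adarb1, whose product edits RNA of glutamate receptor subunits including Grik1 and Grik2, fell. Its controls were at 238, 277, 278 and 355 CPM and its mutants at 166, 143 and 146 CPM (log2 fold change -0.92, SE 0.15, adjusted p 0.00198). Each mutant was below each control, and the gene was called in every alternative. Lin7b, a small PDZ scaffold protein of synapses, fell as well (118 ± 24.2 CPM in controls, 75.7 ± 5.91 in mutants; -0.64, SE 0.16, adjusted p 0.0226), but did not pass without control 2, control 3 or any 1 mutant, where its adjusted p lay between 0.0568 and 0.137. Editing itself cannot be read from counts per gene.

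The other ionotropic glutamate receptor subunits, of the AMPA, NMDA and delta types, gave 2 called genes of 13, both lower, where 9.42% of all tested genes were called and 4.78% called lower. Their median log2 fold change was -0.15. They were the NMDA receptor subunits Grin2a, at 801 ± 259 CPM in controls and 402 ± 76.4 in mutants (fold 0.501, adjusted p 0.0205), and Grin2c, at 5.84 ± 0.842 and 2.66 ± 0.590 CPM (log2 fold change -1.13, SE 0.25, adjusted p 0.0139). Grin2a did not pass without control 2, mutant 7 or mutant 8 (adjusted p up to 0.126), nor Grin2c without mutant 6 or mutant 7 (up to 0.0797). Of these 13 subunits 10 had a lower mean in mutants, as had 8560 of the 16448 tested genes.

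**Figure D5:**
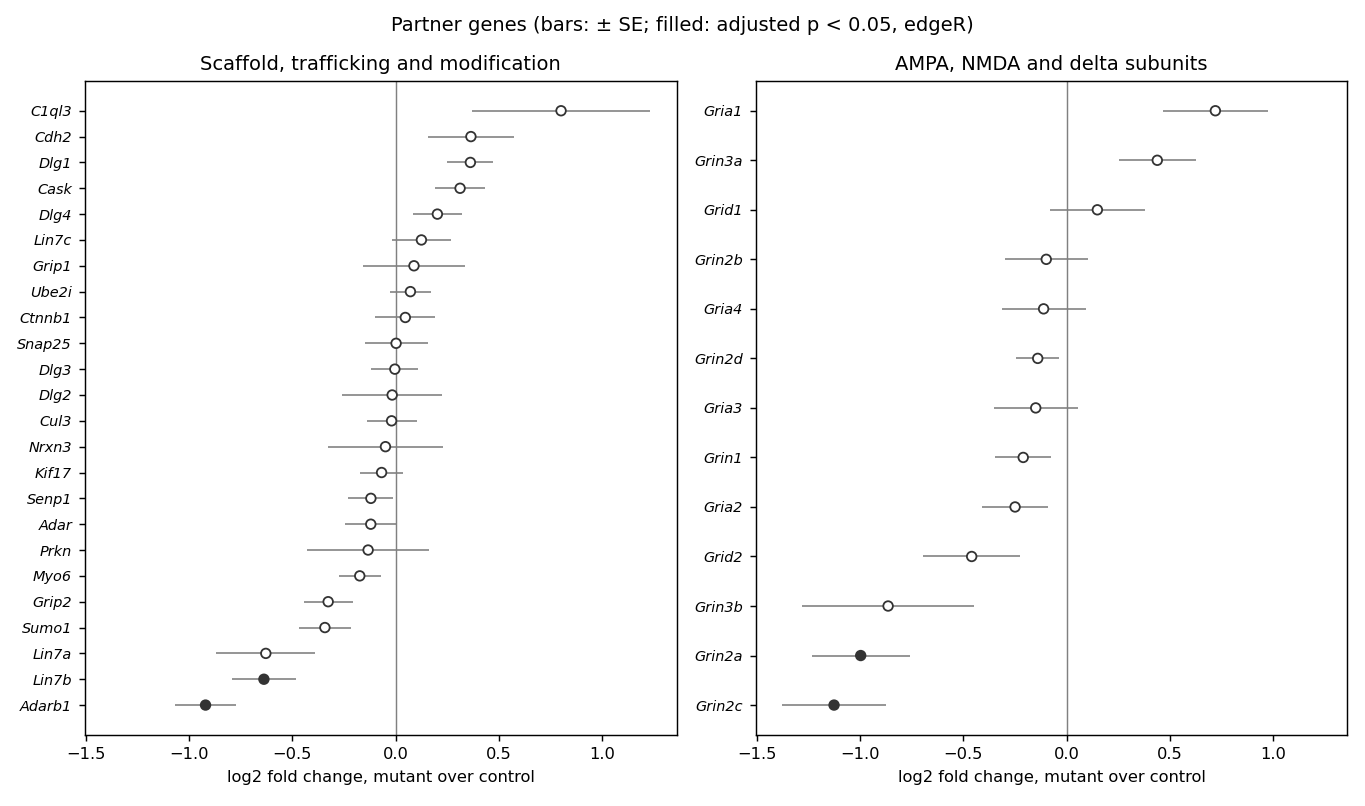
Log2 fold change of mutant over control (x axis; bars are ± SE) for the tested genes that anchor, move or modify kainate receptors (left) and for the other ionotropic glutamate receptor subunits (right); filled points passed an adjusted p under 0.05 in edgeR's test. The filled genes, Adarb1 (-0.92), Lin7b (-0.64), Grin2a and Grin2c (-1.13), are all lower in mutants.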

How the data were processed

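Nuclear RNA of sorted GABAergic neurons was sequenced from 4 control and 4 mutant cortices, with SMART-Seq v4 cDNA and Nextera XT libraries, per the labels' protocols. The deposited values are raw read counts per gene, 1 table per library, with no normalization; the submitters' processing notes name Bowtie2 2.5.3 and the builds mm10 and GRCm38, while the counting program, its settings and use of introns are not given in the sources used here. All 55450 gene identifiers matched GENCODE M21 (GRCm38), which gave symbols, spans and exon lengths. The table of mutant 10, keyed by symbol, differed from that of mutant 7 in 0 of 55220 genes and was left out; the planned design held it as a sample only if it differed. Which animal gave those counts is not known.

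Tests used edgeR 4.0.16 under R 4.3.3 (filterByExpr, least count 10 and least total 15; TMM; robust quasi-likelihood test, two-sided, Benjamini-Hochberg over 16448 tested genes, called at an adjusted p under 0.05). Adjusted p-values in the text are edgeR's unless another tool is named. The SE is the log2 fold change over the square root of F. DESeq2 1.42.0 and limma 3.58.1 served as alternatives, as did an offset from a lowess trend (span 0.5) of log2 CPM on genomic span in each library. Depth was similar across libraries, with at least 513 reads per kainate gene and library.

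The naming rule took the 7 genes, called genes of 2 partner lists, 4 class markers, Thra and, for called members only, the genes most alike. The members and lists were chosen with earlier results of these data known. Of the listed genes 1, Klhl17, was not matched by symbol and is not analysed here.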

Additional observations from a re-analysis of the deposited data

How the results depend on the processing

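No paired analysis was possible because the controls are numbered 1 to 4 and the mutants 6, 7 and 8, with no number in common. With all genes, 1549 were called, against 3147 with limma-voom, 2747 with the length offset and 2778 without controls 1 and 4, and 734 to 2347 without single libraries (766, 734 and 816 without mutants 6, 7 and 8, 1016 without control 3 and 2347 without control 4). Of the 7 kainate genes 0 were called, and 3 with DESeq2, 4 with limma-voom, 2 with upper quartile factors, 2 without a filter, 1 with at least 1 CPM in 3 libraries, 5 with the length offset, 4 without controls 1 and 4, 3 without control 4 and mutant 8, and 0 to 3 without single libraries. Of the 37 partner genes tested 4 were called (9.42% of all genes), and 12 with limma-voom (19.1%), 11 with the length offset (16.7%), 13 without controls 1 and 4 (16.7%), and 1 to 8 without single libraries (4.35% to 14.5%).

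The log2 fold changes that passed were, for DESeq2, 0.75 for Grik1, 0.52 for Neto1 and -0.33 for Neto2. For limma-voom they were 0.72 for Grik1, 0.59 for Grik3, 0.49 for Neto1 and -0.29 for Neto2. Upper quartile factors gave 0.77 for Grik1 and 0.54 for Neto1, no filter 0.75 and 0.52, and the CPM filter 0.53 for Neto1. The length offset gave 0.75 for Grik1, 0.30 for Grik2, 0.61 for Grik3, 0.52 for Neto1 and -0.34 for Neto2. Without controls 1 and 4 the values were 0.66 for Grik1, 0.62 for Grik3, 0.46 for Neto1 and -0.33 for Neto2, and without control 4 and mutant 8 they were 0.93 for Grik1, 0.85 for Grik3 and 0.62 for Neto1. Without single libraries Grik1 ran from 0.58 to 0.87, Grik2 from 0.20 to 0.45, Grik3 from 0.44 to 0.81, Grik4 from -0.12 to 0.21, Grik5 from 0.14 to 0.25, Neto1 from 0.42 to 0.59 and Neto2 from -0.37 to -0.27. Grik4 changed sign without control 1, 2 or 3 or mutant 6. The cause of these changes was not tested. Per kb of the longest transcript, the control level was 263 CPM for Grik1, 108 for Grik2, 49.2 for Grik5 and 50.5 for Neto2, which puts Grik5 above Neto1 (42.9).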

Other observations

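No kainate gene was called with all libraries, so the naming rule gave no gene of like pattern. After the values were seen, the 9535 protein-coding genes outside the lists whose mean reached 10 CPM were searched for the nearest profiles of the 4 genes with an unadjusted p under 0.05. The measure was the root mean square distance of centred log2 CPM over the 7 libraries, which share their group difference and span trend. Genes near by this measure have a like log2 fold change through the choice itself. Their fold changes and calls are therefore no separate evidence. Neto1 was nearest to Fgd4 (distance 0.026, log2 fold change 0.53) and Plpp1 (0.033, log2 fold change 0.52), both called higher, with adjusted p-values of 0.0273 and 0.0332. Neto2 was nearest to Mbnl1 (0.032, log2 fold change -0.31) and Ogfrl1 (0.050, log2 fold change -0.28), neither called. Grik1 was nearest to Mageb18 (0.080, log2 fold change 0.68, not called) and Sh3pxd2b (0.086, log2 fold change 0.69, called, adjusted p 0.0244), and Grik3 to Slco3a1 (0.084, log2 fold change 0.65) and Hivep1 (0.088, log2 fold change 0.59), neither called.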
